A study of Homo sapiens with 16 samples.

Results

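The genes examined were those for the proteins of the cytosolic ribosome. They were chosen by name alone: every gene of the counts table whose symbol is RPL or RPS, then a number, then at most 1 of the letters A, X or L. This took 77 of the 42351 genes in the table, of which 31 encode proteins of the small subunit (RPS) and 46 proteins of the large subunit (RPL). The pattern leaves out pseudogenes and ribosomal proteins with other kinds of symbol, such as RPSA, RPLP0 and FAU, and it takes in the paralogs RPL3L, RPL10L, RPL39L and RPS27L. In all, 75 of the 77 genes passed the filter on low counts, which kept 15067 genes of the table. The exceptions were RPL3L, with at most 3 counts in a library, and RPL10L, with 0 counts in every library. Counts of the 75 tested genes ranged from 155 to 51538 per library.

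The polyadenylated RNA of lung cancer cell lines was sequenced before and after hepatocyte growth factor (HGF), the ligand of the receptor tyrosine kinase MET. The wt MET line is A549, a lung adenocarcinoma line, according to the sample labels, although the study's text describes another wt MET line and the column names of the table spell A549 differently. The MET∆14 line is NCI-H596, a lung adenosquamous carcinoma line whose MET transcript lacks exon 14. Both lines were deprived of serum for 12 h, as the sample labels have it, and were then collected without HGF (0 h) or after 3, 6 or 12 h with it, with 2 biological replicates per condition and 16 libraries in all. A longer deprivation is given in the study's methods. Each form of MET was therefore represented by a single line, and an effect of MET∆14 and any other difference between these lines cannot be told apart. No library without HGF was collected at 3, 6 or 12 h, so HGF and the further hours in culture cannot be told apart either. A response to HGF means here the change from 0 h. CDKN2A, which A549 and some other lines have lost, had 0 counts in every wt MET library and between 1466 and 3464 counts in the MET∆14 libraries. The epithelial keratin KRT8 had at least 8461 counts in every library, whereas the leucocyte marker PTPRC had at most 2. EPCAM, another epithelial marker, had between 13 and 42 counts in the wt MET libraries and between 295 and 739 in the MET∆14 libraries. Total counts per library ranged from 10158590 to 23909304.

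Ribosomal proteins assemble with ribosomal RNA into the small subunit, which decodes the mRNA, and the large subunit, which joins the amino acids. Their mRNAs are among the most abundant of growing cells, and their translation is controlled together by the kinase mTOR, which lies downstream of AKT and of growth factor receptors. That control acts through the 5′ terminal oligopyrimidine (5′ TOP) tract, a run of C and T that starts with a C at the first transcribed base and is bound by LARP1 when mTOR is off. RNA-seq counts measure the abundance of these mRNAs and not their translation.

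The start of the genes is shown because this shared feature was not used to choose them. The tract was searched as a C at the annotated start followed by at least 4 bases that are each C or T, on the transcribed strand, in the RefSeq promoter table (GRCh38.p14). Of the 77 genes, 60 had an entry. At least 1 annotated start began with such a tract in 42 of the 60 genes (70%), whereas this held for 5.14% of all 27305 genes in the same table. With a shift of up to 2 bases in either direction the counts were 46 of 60 genes and 13.0% of all genes. Among the 17 genes without an entry were RPL5, RPL7, RPS2, RPL3L and RPL39L. Each sequence runs from 10 bases before the start to 20 bases from it, 5′ to 3′, with the tract in capitals.
RPS6 (chr9:19380217-19380246, minus strand): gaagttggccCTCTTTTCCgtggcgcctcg
RPS3 (chr11:75399508-75399537, plus strand): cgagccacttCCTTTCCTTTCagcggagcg
RPS19 (chr19:41860245-41860274, plus strand): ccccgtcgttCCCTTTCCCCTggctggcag
RPS16 (chr19:39435930-39435959, minus strand): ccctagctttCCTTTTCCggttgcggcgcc
RPL11 (chr1:23691796-23691825, plus strand): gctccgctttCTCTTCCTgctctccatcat
RPL12 (chr9:127451387-127451416, minus strand): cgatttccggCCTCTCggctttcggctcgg
RPL39 (chrX:119791611-119791640, minus strand): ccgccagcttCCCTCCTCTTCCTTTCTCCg
RPL3 (chr22:39319604-39319633, minus strand): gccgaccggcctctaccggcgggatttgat
RPL10A (chr6:35468391-35468420, plus strand): aagacatgctagtctcttttccggttagcg
RPS27L (chr15:63157458-63157487, minus strand): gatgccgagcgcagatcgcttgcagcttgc
The tract of RPL39 was the longest, with 19 bases. RPL3, RPL10A and RPS27L had no tract that met the rule at the annotated start. The search says nothing about where transcription began in these cells.

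The 77 genes held between 4.72% and 5.86% of all counts in the wt MET libraries and between 2.04% and 3.22% in the MET∆14 libraries. The highest MET∆14 library thus lay below the lowest wt MET library. The mean difference of the share over 8 libraries per line was -2.29 percentage points (MET∆14 minus wt MET), with p = 0.00154 by a two-sided exact permutation test that exchanged lines within each time, the smallest value its 1296 arrangements can give. A smaller share in bulk RNA can come from less of these mRNAs per cell or from more of other mRNAs, and these cannot be told apart.

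In the wt MET line the share was 5.19% and 5.86% at 0 h, 4.95% and 4.93% at 3 h, 4.82% and 4.72% at 6 h, and 5.0% and 5.17% at 12 h in replicates 1 and 2. All 6 later libraries lay below both 0 h libraries, by 0.588 percentage points on average (p = 0.0714, two-sided exact permutation test, the smallest value that 2 against 6 libraries allow). Without replicate 2 of 0 h the difference of the later libraries was -0.254 percentage points. In the MET∆14 line the share was 2.77% and 2.72% at 0 h, 2.86% and 2.86% at 3 h, and 2.99% and 2.90% at 6 h. At 12 h the MET∆14 replicates stood on either side of all the others, with 2.04% in replicate 1 and 3.22% in replicate 2. Of the 6 later libraries, all but replicate 1 of 12 h lay above both 0 h libraries, and the mean difference of the later libraries from 0 h was 0.0683 percentage points (0.222 without that replicate). With 2 against 6 libraries a permutation test cannot pass 0.05 here either. The large subunit held between 1.29 and 1.36 times the counts of the small subunit in the wt MET libraries. In the MET∆14 libraries it held between 1.38 and 1.46 times.

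**Figure D1:**
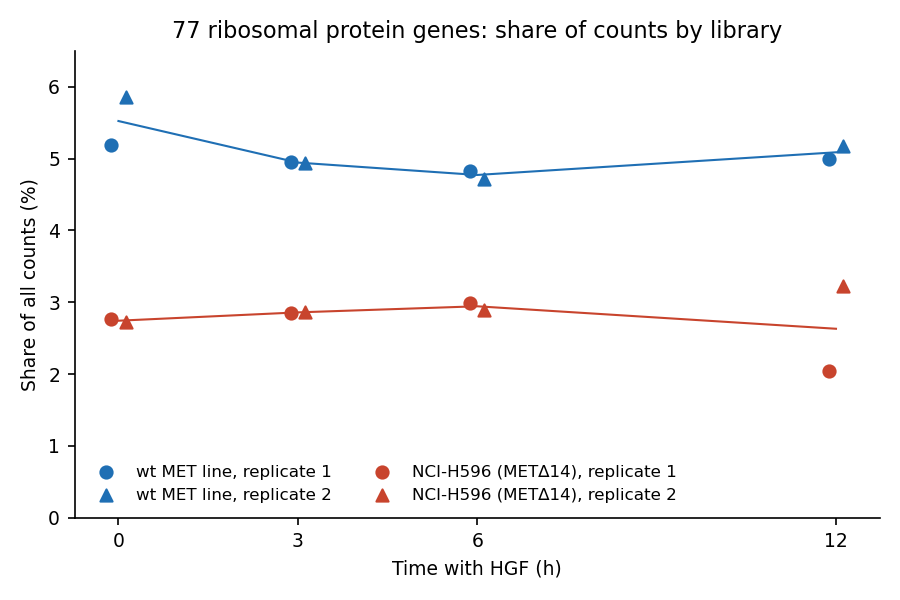
Share of all counts held by the 77 ribosomal protein genes (vertical axis, %) against the time with HGF (horizontal axis, h). Each point is a library, circles are replicate 1 and triangles replicate 2, and lines join the means of replicates. The wt MET libraries (blue) lie between 4.72% and 5.86%, and the MET∆14 libraries (red) between 2.04% and 3.22%, with the widest gap between replicates at 12 h.

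The 12 h MET∆14 replicates differed in nearly the whole family. Replicate 2 was above replicate 1 for 75 of 75 genes, with a median log2 difference of 0.67 (from 0.16 for RPL7 to 1.11 for RPL39L), whereas the median over all tested genes was -0.03. The next largest difference was at 0 h of the wt MET line, where replicate 2 was again above replicate 1 for 75 of 75 genes (median 0.23). In the other 6 pairs the median lay between -0.04 and 0.07. The difference at 12 h moved with transcript length across the table. Among other genes, the median of replicate 2 minus replicate 1 was 0.30 in the shortest of 8 length classes and -0.35 in the longest, and 50 of the 75 genes belonged to the shortest class. The ribosomal protein genes had the higher median in every class, with 0.71 in the shortest and 0.56 in the longest, which held 2 of them. At 0 h of the wt MET line the corresponding medians of other genes were 0.13 and -0.11. How much of the results came from these length differences was not tested. Values are given with and without each of these libraries, and some also with offsets for transcript length and GC content.

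**Figure D2:**
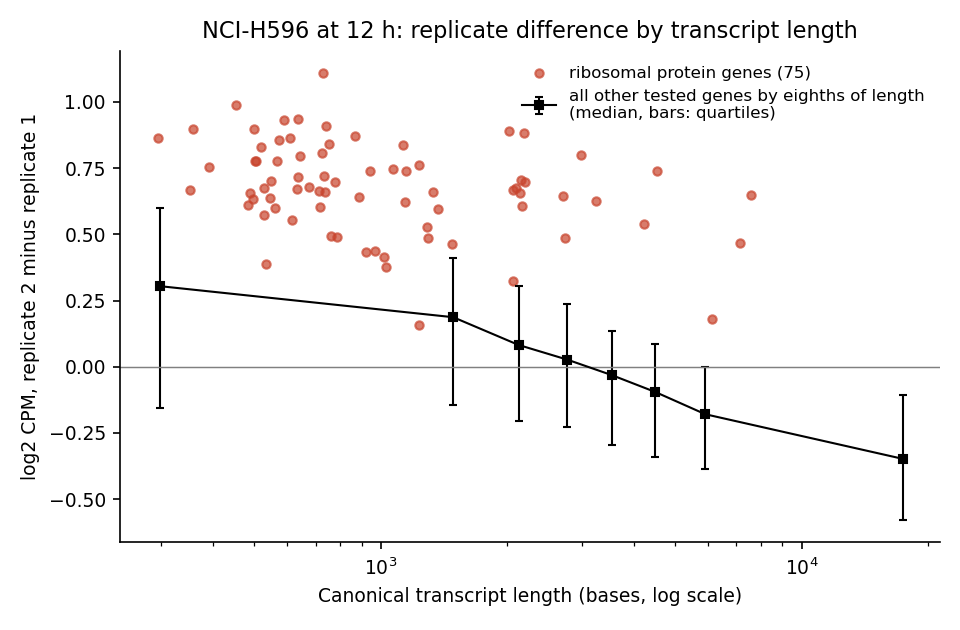
Difference between the 12 h MET∆14 replicates (log2 CPM, replicate 2 minus replicate 1) against the length of the canonical transcript (bases, log scale). Red points are the 75 ribosomal protein genes, and black squares are the medians of all other tested genes in 8 length classes with their quartiles. Other genes fall from 0.30 in the shortest class to -0.35 in the longest, and the red points lie between 0.16 and 1.11.

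Before HGF, most ribosomal protein mRNAs were lower in the MET∆14 line. Of the 75 genes, 64 were lower and 0 were higher in edgeR's quasi-likelihood test (adjusted p under 0.05), where 39.6% of all tested genes were lower and 40.6% higher. The median log2 difference of the 75 genes was -1.01, and that of all tested genes was 0.02. It was -1.25 over the 31 genes of the small subunit and -0.94 over the 44 tested genes of the large subunit. In 60 of the 75 genes all 8 wt MET libraries, at any time, lay above all 8 MET∆14 libraries, which held for 30.5% of all tested genes.

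The size of the difference varied widely from gene to gene. RPS27L, a paralog of RPS27, was the lowest. Its level was 222 and 297 CPM (counts scaled to a common depth, computed on library sizes scaled by TMM factors) in the wt MET line at 0 h and 23.8 and 23.0 CPM in the MET∆14 line, a log2 difference of -3.47 ± 0.12 (SE, adjusted p = 1.19e-12, edgeR). RPS16, whose tail reaches the tRNA in the P site, had 1740 and 1913 CPM against 295.5 and 285 CPM (log2 -2.65 ± 0.16, adjusted p = 3.94e-10). In both genes the replicates of the lines were far apart and did not overlap.

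RPS19, the gene most often mutated in Diamond-Blackfan anaemia, had 1668 and 2013 CPM in the wt MET line and 385 and 360 CPM in the MET∆14 line (log2 -2.31 ± 0.20, adjusted p = 5.93e-08). RPL17, a protein of the exit tunnel, had 548 and 606 CPM against 127 and 123 CPM (log2 -2.21 ± 0.13, adjusted p = 4.48e-10). RPS16 and RPS19 both lie on chromosome 19 (39433137 to 39435949 and 41860255 to 41872925, hg38). RPS27L lies on chromosome 15 (63125872 to 63158021) and RPL17 on chromosome 18 (49488453 to 49492508). At the other end of the range, 11 genes did not pass the test, namely RPL10A, RPL29, RPL35A, RPL36, RPL37, RPL39L, RPS2, RPS3A, RPS10, RPS18 and RPS21, which are listed here after their values were seen. RPL10A, of the flexible L1 stalk, had 276 and 325 CPM in the wt MET line and 291 and 298 CPM in the MET∆14 line, a log2 difference of -0.03 ± 0.14.

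The remaining genes chosen for their roles lay between these ends. RPS6, the substrate of the S6 kinases, was lower by -1.47 ± 0.14 on the log2 scale, and RPS27A, which is made as a fusion with ubiquitin, by -1.65 ± 0.13. RPL5 and RPL11, which bind the 5S rRNA and can inhibit MDM2, differed by -0.69 ± 0.11 and -0.46 ± 0.12. RPL10, one of the last proteins to join the large subunit, differed by -1.05 ± 0.14, and RPL39, which lines the exit tunnel, by -0.52 ± 0.17. The values were -0.55 ± 0.15 for RPS3, -0.61 ± 0.10 for RPL22 and -0.29 ± 0.12 for RPL3. Adjusted p (edgeR) was under 0.05 for each of these genes. Offsets for transcript length and GC content left 65 of 75 genes called, but turned the sign of RPL39 to 0.064. RPL39 also did not pass without replicate 1 or 2 of the MET∆14 line at 0 h (adjusted p = 0.0511 and 0.0642) or replicate 2 of the wt MET line (0.126).

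**Figure D3:**
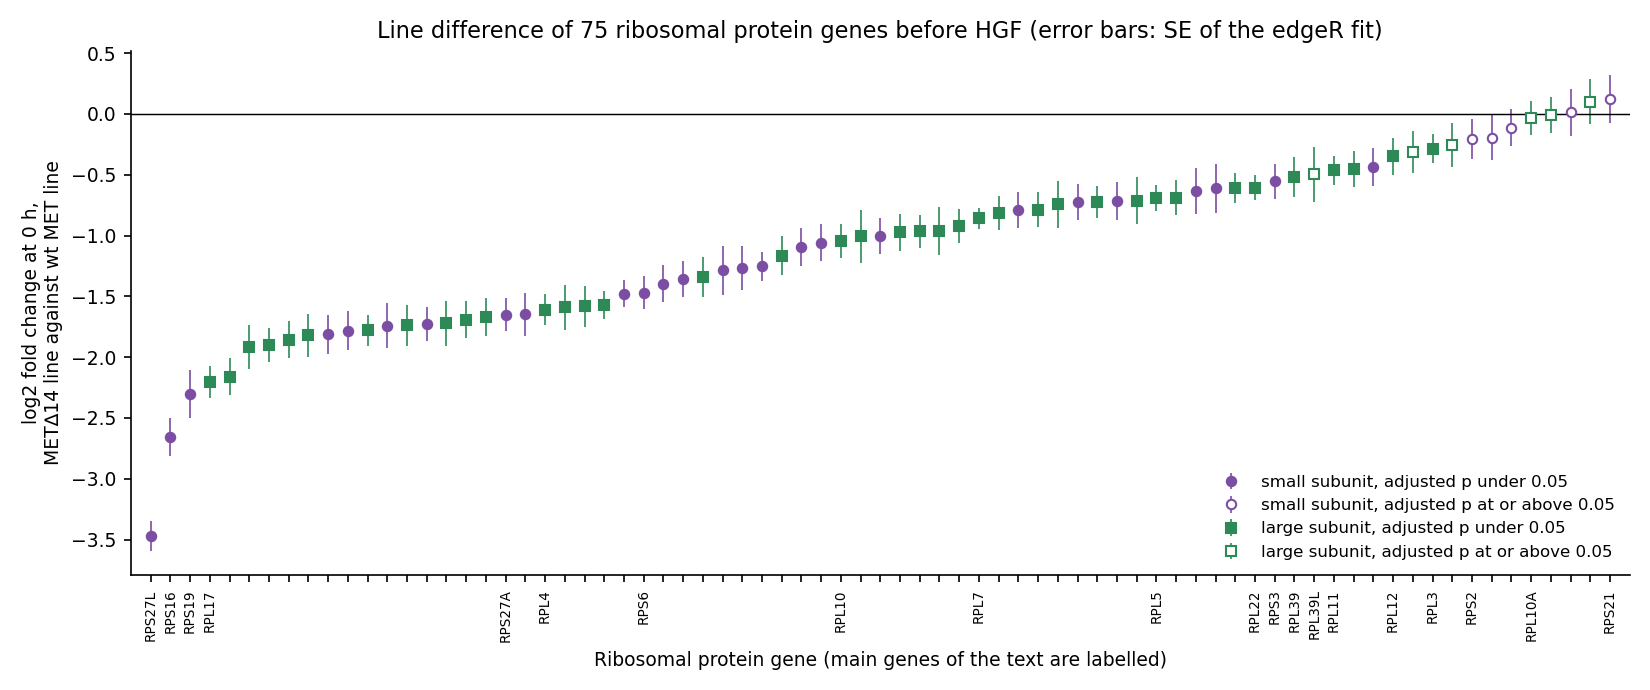
Difference between the lines at 0 h for each of the 75 tested genes, ordered by size (vertical axis, log2 of MET∆14 against wt MET). Bars are the standard error of the fit, circles are genes of the small subunit, squares genes of the large subunit, open symbols did not pass an adjusted p of 0.05, and the main genes of the text are labelled. The values run from -3.47 for RPS27L to 0.12 for RPS21, and 64 genes are filled and below 0.

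In the wt MET line, HGF was followed by a fall of a few genes while most of the family moved little. At 3 h the test called 0 of the 75 genes higher and 0 lower, against 10.3% and 7.16% of all tested genes, with 0 at an unadjusted p under 0.05 and 0 by DESeq2. It called 0 higher and 3 lower at 6 h, against 16.4% and 17.8%, and 0 higher and 6 lower at 12 h, against 16.9% and 18.2%. Over the times together, 5 of 75 changed (40.3% of all tested genes did). The median log2 change of the 75 genes was -0.10 at 3 h, -0.10 at 6 h and -0.04 at 12 h, and that of all tested genes was -0.04, -0.05 and -0.00. With offsets for transcript length and GC content the medians of the 75 genes were 0.02, 0.0025 and 0.08, with the opposite sign. At 6 h both libraries lay below both 0 h libraries in 28 of 75 genes, or 37.3%, a share close to the 37.8% of all tested genes.

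The 5 genes that changed over time all fell, and fell further at 12 h than at 3 h. RPL12, at the base of the stalk that recruits elongation factors, had 316 and 360 CPM at 0 h, 280 and 295 CPM at 3 h, 242 and 248 CPM at 6 h, and 190 and 201 CPM at 12 h. The replicates of 6 h and 12 h did not overlap those of 0 h, and the log2 change at 12 h was -0.79 ± 0.16 (adjusted p = 0.00131, edgeR). RPL3, whose loop reaches the peptidyl transferase centre, went from 714 and 781 CPM at 0 h to 583 and 590 CPM at 6 h and 427 and 467 CPM at 12 h, a log2 change of -0.74 ± 0.12 (adjusted p = 0.000325). Again no replicate of 12 h came near those of 0 h.

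RPS2, which lines the mRNA entry channel, went from 965 and 1160 CPM at 0 h to 659 and 671 CPM at 12 h (log2 -0.68 ± 0.17, adjusted p = 0.00556). RPL10A fell from 276 and 325 CPM to 193 and 209.9 CPM (log2 -0.58 ± 0.14, adjusted p = 0.00511), and RPL7 from 854 and 936 CPM to 693 and 746 CPM (log2 -0.31 ± 0.08, adjusted p = 0.00982). These genes lie on chromosomes 9 (RPL12, 127447674 to 127451406), 22 (RPL3, 39312882 to 39320389), 16 (RPS2, 1962058 to 1964841), 6 (RPL10A, 35468401 to 35470785) and 8 (RPL7). RPS3 was the other gene called at 12 h, with a log2 change of -0.40 ± 0.15 (adjusted p = 0.0445), though not over the times together.

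The 0 h libraries of this line differed most from each other, so each count was also made without replicate 2 of 0 h, the one with the higher share. The median changes then turned to 0.04, 0.04 and 0.09, and 2 of 75 genes were lower at 12 h (15.2% of all tested genes), which were RPL3 (-0.68 ± 0.15, adjusted p = 0.00437) and RPL12 (-0.70 ± 0.19, adjusted p = 0.0178). Without the 12 h MET∆14 replicate 1, which shares the estimate of the spread, 20 of 75 genes were lower at 12 h (22.4% of all tested genes), and without replicate 2, 21 were (22.8%).

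In the MET∆14 line most of the family lay slightly above 0 h at 3 h and 6 h. Both 3 h libraries lay above both 0 h libraries in 64 of 75 genes, against 32.0% of all tested genes, and both 6 h libraries did so in 70 of 75 genes, against 36.0%. The median log2 change of the 75 genes was 0.14 at 3 h and 0.22 at 6 h, while that of all tested genes was -0.05 and -0.04. Single genes mostly did not pass the test in the fit over all libraries. The test called 0 higher and 0 lower at 3 h (15.5% and 16.1% of all tested genes), with 0 at an unadjusted p under 0.05 and 0 by DESeq2. It called 9 higher and 0 lower at 6 h (21.6% and 22.5%), namely RPL4, RPL5, RPL6, RPL7, RPL14, RPL17, RPS4X, RPS24 and RPS26.

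The estimate of the spread of each gene took in the 12 h replicates that stood apart. Without replicate 1 of 12 h, 18 of 75 genes were higher at 3 h (19.6% of all tested genes) and 55 at 6 h (25.6%). Without replicate 2 of 12 h, 16 were higher at 3 h (19.3%) and 53 at 6 h (24.9%). The median changes at 3 h and 6 h were 0.15 and 0.22 in the former fit and 0.14 and 0.21 in the latter. The medians thus hardly moved between these fits, whereas far more genes passed the test. With total counts in place of TMM factors the medians were 0.07 and 0.08, while those of all tested genes moved to -0.13 and -0.17. The calls at 6 h fell to 1 gene with total counts and to 2 with each line fitted alone. They rose to 22 with offsets for length and GC content and to 35 with no filter on low counts. Leaving out a 0 h MET∆14 library also lowered the calls.

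RPL4, which reaches into the exit tunnel and is named here after its values were seen, had the largest change at 6 h. Its level was 837 and 829 CPM at 0 h, 997 and 970 CPM at 3 h, and 1105 and 1118 CPM at 6 h (log2 0.42 ± 0.12, adjusted p = 0.0132, edgeR). RPL5 rose from 406 and 409 CPM at 0 h to 478 and 461 CPM at 3 h and 511 and 535 CPM at 6 h (log2 0.36 ± 0.11, adjusted p = 0.0138). RPS6 went from 537 and 543 CPM to 609 and 608 CPM at 3 h and 666 and 693 CPM at 6 h, a log2 change of 0.33 ± 0.14 that did not pass the test (adjusted p = 0.0612). In each of these genes the replicates of 0 h, 3 h and 6 h were in order and did not overlap.

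At 12 h the MET∆14 replicates went opposite ways from 0 h, and no direction can be given for the family. In the fit over all libraries the test called 0 of 75 genes higher and 1 lower (18.3% and 20.1% of all tested genes), with a median log2 change of -0.03 (0.08 with offsets for length and GC content). Relative to the mean of 0 h, the median of the 75 genes was -0.40 in replicate 1 and 0.29 in replicate 2. Both 12 h libraries lay above both 0 h libraries in 1 of 75 genes, RPL7 (27.8% of all tested genes). Without replicate 1, 48 genes were higher (17.3% of all tested genes), and without replicate 2, 61 were lower (23.8%). RPL4 had 806 CPM in replicate 1 and 1128 CPM in replicate 2, RPS6 had 460 and 694 CPM, and RPS19 had 224 and 415 CPM, from 385 and 360 CPM at 0 h.

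RPS27L was the gene called lower at 12 h in the fit over all libraries, where 20.1% of all tested genes were. Its level in the MET∆14 line was 23.8 and 23.0 CPM at 0 h, 23.5 and 21.3 CPM at 3 h, 19.0 and 18.8 CPM at 6 h, and 16.2 and 18.4 CPM at 12 h. Its log2 change at 12 h was -0.45 ± 0.13 (adjusted p = 0.014) and was the single gene of 75 called over the times together (adjusted p = 0.0271), where 54.1% of all tested genes were called. That call was lost with offsets for length and GC content (adjusted p = 0.073) and without replicate 1 of 12 h (0.118). Without replicate 1 of 12 h its change there was -0.35 ± 0.18 and did not pass the test (adjusted p = 0.135). RPL39L, a paralog of RPL39, had between 8.48 and 25.5 CPM over all libraries and passed no test over time in the fit over all libraries. It did pass over the times together in the MET∆14 line without replicate 1 or 2 of 12 h (adjusted p = 0.0176 and 0.000153).

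**Figure D4:**
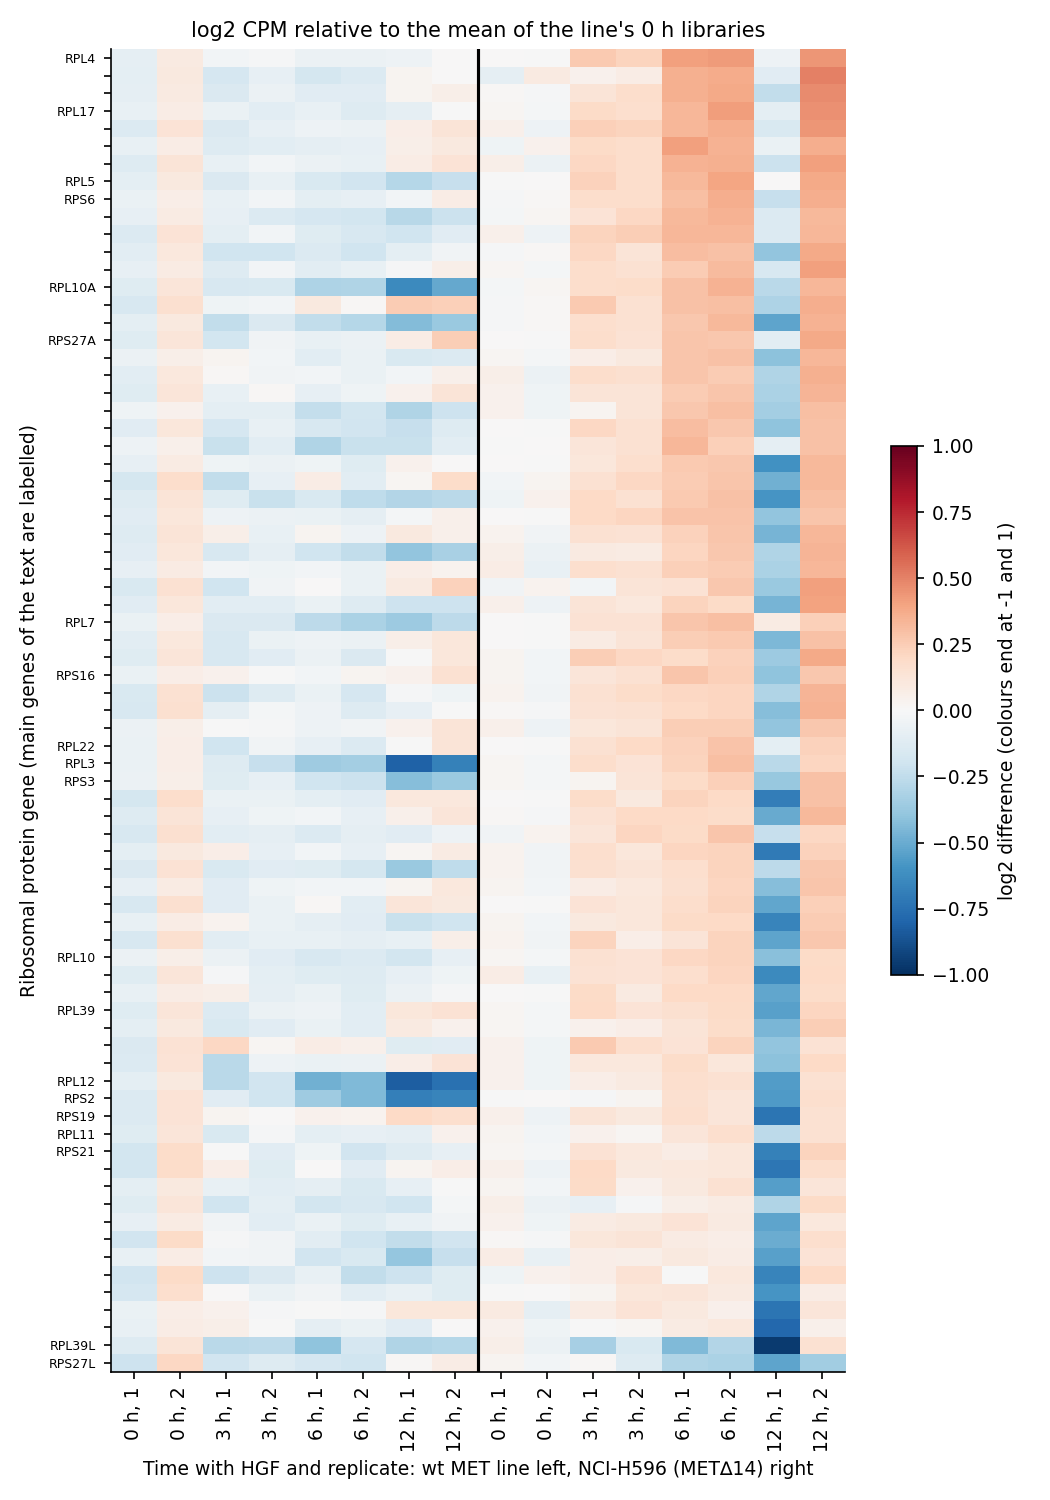
Change of the 75 ribosomal protein genes in each library (rows are genes, of which the main ones of the text are labelled, and columns are libraries by time and replicate), as log2 CPM relative to the mean of the 0 h libraries of the same line. Red is higher and blue lower, and colours end at -1 and 1. In the MET∆14 line the 3 h and 6 h libraries are mostly red (medians 0.14, 0.13, 0.21 and 0.24), and the 12 h replicates differ (-0.40 and 0.29).

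The response to HGF differed between the lines in 4 of the 75 genes, by edgeR's F test of whether the time course depended on the line, which 37.6% of all tested genes passed. The genes were RPL3, RPL10A, RPL7 and RPL5, and in each the mean response over 3, 6 and 12 h was higher in the MET∆14 line. For RPL3 the mean log2 response was -0.42 ± 0.10 in the wt MET line and 0.14 ± 0.10 in the MET∆14 line, a difference of 0.56 ± 0.14 (interaction adjusted p = 0.0138, edgeR). RPL10A responded by -0.35 ± 0.11 and 0.19 ± 0.11 (difference 0.54 ± 0.16, adjusted p = 0.0461), RPL7 by -0.25 ± 0.07 and 0.20 ± 0.07 (difference 0.45 ± 0.10, adjusted p = 0.00651), and RPL5 by -0.18 ± 0.09 and 0.25 ± 0.09 (difference 0.44 ± 0.12, adjusted p = 0.0447).

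All 4 belong to the large subunit, as do 44 of the 75 tested genes. Over the 75 genes, the median difference of the mean responses was 0.17, against 0.02 over all tested genes, and 70 of the 75 differences were positive. That median was 0.29 without replicate 1 of 12 h in the MET∆14 line and 0.03 without replicate 2, with 74 and 44 positive differences. Without replicate 1, 41 genes passed the interaction test (46.7% of all tested genes), and without replicate 2, 74 did (54.1%). Without replicate 2 of 0 h in the wt MET line 2 genes passed, RPL7 and RPS27L. RPL3 (adjusted p = 0.0557), RPL10A (0.196) and RPL5 (0.213) then did not, while RPL7 had an adjusted p of 0.0315.

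**Figure D5:**
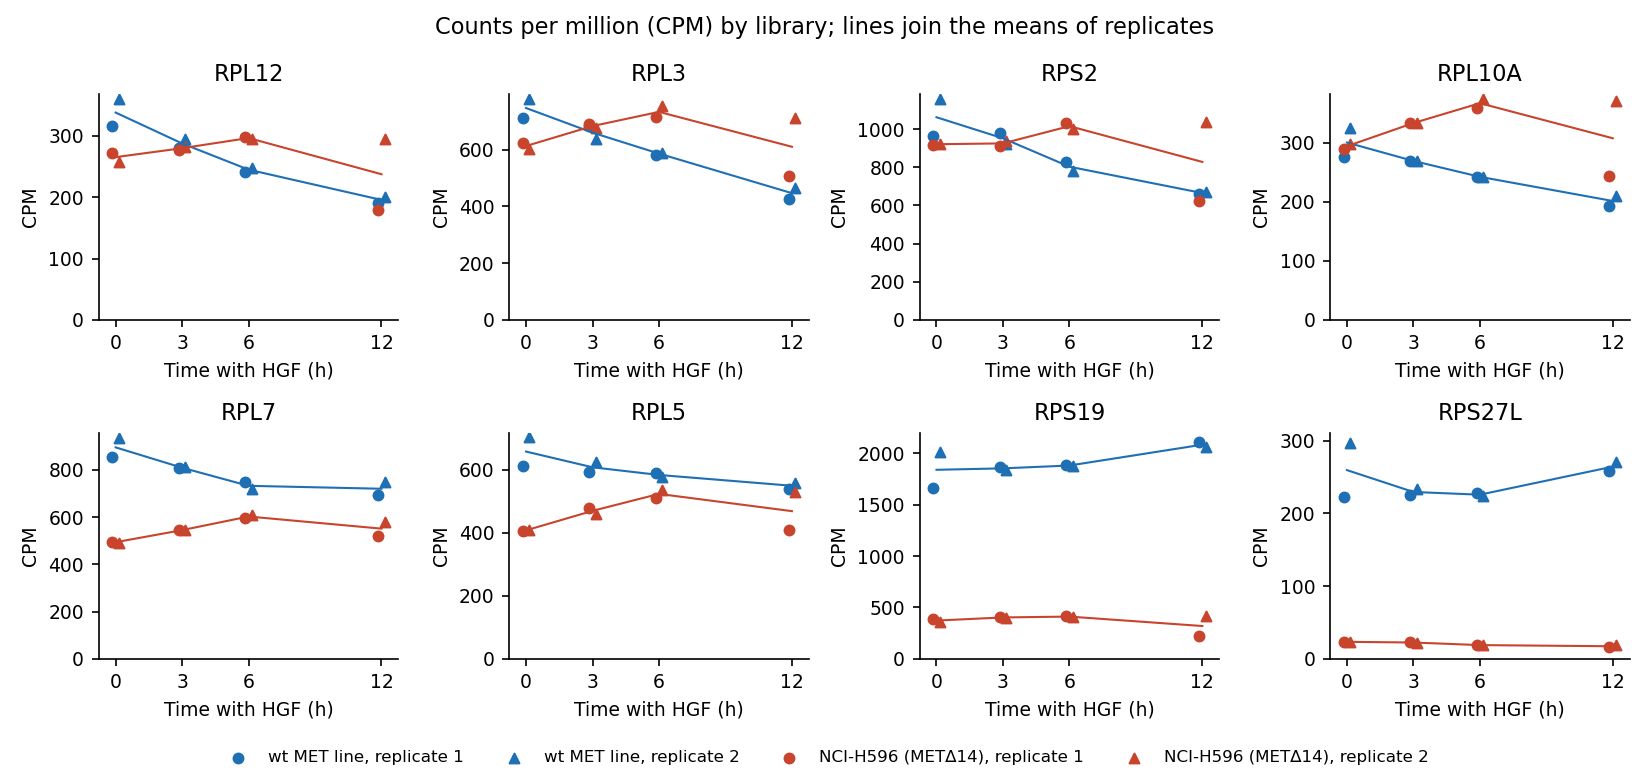
Levels of 8 ribosomal protein genes (CPM) against the time with HGF (h) in the wt MET line (blue) and the MET∆14 line (red). Circles and triangles are replicates 1 and 2, and lines join the means of replicates. RPL12, RPL3, RPS2, RPL10A and RPL7 go down in blue, the red points rise to 6 h and split at 12 h in most panels, and RPS19 and RPS27L keep the lines apart at every time.

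Genes with and without the pyrimidine tract at the annotated start are given side by side as a description. The split depends on the exact base annotated. With a shift of up to 2 bases, 46 of the 60 genes had a tract (13.0% of all genes with an entry). With up to 5 bases, 49 did (25.2%), RPL3 and RPL10A among them. In the MET∆14 line at 6 h the 42 genes with a tract had a median log2 change of 0.21, and the 17 tested genes with an entry but no tract had 0.29. At 12 h in the wt MET line the medians were -0.02 and -0.02, and between the lines at 0 h they were -0.94 and -1.61.

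Ribosomal proteins outside the naming pattern formed a list of 10 genes, of which 8 were lower in the MET∆14 line at 0 h and 0 higher (median log2 -1.12, against 39.6% and 40.6% of all tested genes). Over time 1 of them changed in the wt MET line and 2 in the MET∆14 line, where 40.3% and 54.1% of all tested genes did. RPL22L1, a paralog of RPL22, moved in opposite directions in the lines. It had 27.0 and 40.4 CPM at 0 h and 16.3 and 18.6 CPM at 12 h in the wt MET line (log2 -0.96 ± 0.17, adjusted p = 0.000524), whereas it rose from 9.65 and 8.79 CPM to 15.4 and 14.9 CPM at 6 h in the MET∆14 line (log2 0.72 ± 0.18, adjusted p = 0.00523). The interaction test called it as well (adjusted p = 0.00526). Its 12 h levels in the MET∆14 line were 8.10 and 10.9 CPM, on either side of 0 h.

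Other mRNAs with a known 5′ TOP tract included translation factors and NPM1, a nucleolar chaperone of ribosome assembly. At 0 h 16 of 18 were lower in the MET∆14 line and 0 higher (median log2 -0.86, beside 39.6% and 40.6% of all tested genes). After HGF, 3 of 18 changed at any time in the wt MET line (40.3% of all tested genes) and 6 of 18 in the MET∆14 line (54.1%). At 6 h 10 were higher and 1 lower in the latter, beside 21.6% and 22.5% of all tested genes. NPM1 rose from 571 ± 0.841 CPM (SD, n = 2) to 972 ± 5.42 CPM at 6 h in the MET∆14 line (log2 0.77 ± 0.11, adjusted p = 3.97e-05). PABPC1, the poly(A)-binding protein, had 993 ± 33.7 CPM (SD, n = 2) in the wt MET line at 0 h and 713 ± 30.6 CPM after 12 h (log2 -0.48 ± 0.08, adjusted p = 0.000352), and HNRNPA1 fell by 0.43 ± 0.09 (adjusted p = 0.00196).

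Most genes that chaperone or import ribosomal proteins rose in the MET∆14 line. Of 12 such genes, 9 were higher and 0 lower at 3 h, 11 and 0 at 6 h, and 9 and 0 at 12 h, beside 15.5%, 21.6% and 18.3% of all tested genes that were higher at these times, with a median log2 change of 0.87 at 6 h. LTV1, an assembly factor of the small subunit, rose from 19.9 ± 1.55 to 44.6 ± 1.14 CPM (SD, n = 2) at 6 h (log2 1.16 ± 0.11, adjusted p = 7.62e-07). HEATR3, which escorts RPL5 into the nucleus, rose by 1.10 ± 0.16 and PDCD2L, a partner of RPS2, by 1.27 ± 0.22. In the wt MET line 7 of the 12 changed at any time (40.3% of all tested genes), and at 6 h 1 was higher and 3 lower, with HEATR3 at -0.99 ± 0.20 and PDCD2L at -0.99 ± 0.23.

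Among 21 genes of the AKT and mTOR pathway, 14 changed at any time in the wt MET line and 12 in the MET∆14 line, beside 40.3% and 54.1% of all tested genes. LARP1 fell from 359 ± 8.29 to 209 ± 2.40 CPM (SD, n = 2) at 6 h in the wt MET line and was back at 356 ± 18.9 CPM at 12 h. EIF4EBP1, the repressor of the cap-binding protein, fell by 0.91 ± 0.14 at 12 h there (adjusted p = 0.000177), and EIF4E, the cap-binding protein itself, rose by 0.76 ± 0.09 at 6 h in the MET∆14 line (adjusted p = 1.33e-05). Of 14 genes that survey ribosomes and ribosomal proteins, 9 changed in the wt MET line and 12 in the MET∆14 line, beside the same shares.

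The 78 genes of the mitochondrial ribosome served as a comparison. At 0 h 40 were lower and 19 higher in the MET∆14 line (median log2 -0.34), beside 39.6% and 40.6% of all tested genes. In the wt MET line 0 were higher and 9 lower at 6 h (16.4% and 17.8% of all tested genes), and in the MET∆14 line 27 were higher and 1 lower (21.6% and 22.5%). MRPL12 fell by 0.88 ± 0.16 at 12 h in the wt MET line, and MRPS30 rose by 0.75 ± 0.10 at 6 h in the MET∆14 line.

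Levels can be compared between genes only per length, and here they depended on the annotation. By the longest annotated transcript, levels at 0 h ranged from 31.3 to 1280.0 RPKM (CPM divided by the transcript length in kilobases) in the wt MET line and from 3.83 to 639.5 RPKM in the MET∆14 line. RPL8 was the highest in the wt MET line at 1280.0 ± 77.8 RPKM (SD, n = 2), followed by RPS27A at 1227 ± 142, whose spread includes the level of RPL8, and RPL26 at 1095 ± 90.7. RPS18 was the highest in the MET∆14 line at 639.5 ± 18.5 RPKM, before RPS2 and RPL8. The lowest were RPL39L, RPL14 and RPS29 in the former line and RPS27L, RPS29 and RPL39L in the latter. By the canonical transcript, a length added after the values were seen, RPS16 and RPS18 led in the respective lines.

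Counts of this family can be shared with processed pseudogenes that differ little from the parent mRNA. The table held 1110 pseudogenes named for a member, of which 411 had counts. They held between 0.0487% and 0.145% of the counts per library, or between 2.07 and 2.63 counts for every 100 counts of the 77 genes. The values of RPL23A and RPL21 are the most uncertain, since their pseudogenes held 106% and 34.2% as many counts as the genes themselves. Read-through loci held up to 3.33% as many counts as RPS10, 2.05% as many as RPL17 and 0.558% as many as RPL36A. Adding the counts of pseudogenes to their parents changed none of the counts of genes called.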

How the data were processed

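RNA-seq of 16 libraries from 2 cell lines was analysed, with 2 biological replicates of each line at 0, 3, 6 and 12 h of HGF. The authors mapped reads to hg38, and deposited whole-number counts per gene without normalization. STAR 2.5.0 and RSEM 1.3.2 are named in the submitters' processing notes; the use of strand is not given in the sources used here. Total counts of 10158590 to 23909304 set the counting error, which is largest for genes with few counts. The study describes the replicates as biological duplicates without saying how the cultures were separated, so that p-values measure the spread between these libraries. Intervals are not given for counts; the errors are SD over libraries or SE of the fit.

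Counts were tested in R 4.3.3 with edgeR 4.0.16: filterByExpr (minimum count 10, minimum total 15), TMM factors, and a robust quasi-likelihood fit with 1 coefficient per condition over all libraries. The contrasts were 3, 6 and 12 h against the 0 h libraries of the same line and MET∆14 against wt MET at 0 h, with F tests over the 3 times and for the interaction. P-values were adjusted over all tested genes by Benjamini and Hochberg (threshold 0.05). CPM values were computed on TMM-scaled library sizes. A prior count of 2 was added for values on the log2 CPM scale. An additive model of line and time, the formula of the study, called 0 of the 75 genes over time when fitted in edgeR to these libraries (4615 of all 15067). The study fitted its formula with DESeq2, and its transcriptomics also covered cells with amplified wt MET. Shares were compared by exact permutation tests. Lengths, GC content and coordinates come from GENCODE 44 on hg38, promoter sequences from RefSeq. On simulated counts for 14415 genes with 200 raised by a factor of 2 at 3 h in the MET∆14 line, the test at 3 h recovered 98% with 4 false calls and the interaction test 82% with 12 false calls. The simulation gave all genes the same spread, and its changes were far larger than the family's median log2 change of 0.14 at 3 h. It therefore cannot show how often changes of that size would be called.

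Genes were named by rule: 10 genes chosen for their role and 5 paralogs, the 4 largest rises and falls per line among genes called at any time, the 4 largest differences in response and at 0 h in each direction among genes called, the 3 highest and lowest levels, and up to 3 genes of each related list with the largest mean response. The members, the lists and the rule were chosen with earlier results of these data known. Of 8 genes that host small nucleolar RNAs, none is analysed here. In the list of pseudogenes, 82 were tested, and 6 in the wt MET line and 5 in the MET∆14 line changed at any time; they are not named, since their reads can be shared with the parent genes. The alternatives tried were DESeq2 1.42.0, its size factors in edgeR, total counts, TMM factors without the family, other filters, a minimum log2 change of 0.5, a replicate block, each line alone, offsets for length and GC content, pseudogene counts added, and each library left out. The canonical transcript length was added after the data were seen. Some genes are not reported here.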

Additional observations from a re-analysis of the deposited data

Results flagged for a closer look

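HGF responses differed between the lines in 4 of the 75 genes by the interaction F test (edgeR, adjusted p under 0.05). Of all tested genes, 37.6% passed that test. The difference given is the mean log2 response in the MET∆14 line minus that in the wt MET line. It was 0.56 for RPL3, 0.54 for RPL10A, 0.45 for RPL7 and 0.44 for RPL5. With 2 libraries per condition, no test for a library that stands apart within its condition was possible.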

How the results depend on the processing

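The lower level in the MET∆14 line at 0 h (64 of 75 genes, 56 to 69 with 1 library left out) and the difference in share (-2.35 to -2.18 percentage points with 1 library left out) kept their direction and their side of the threshold under every alternative run. The counts over time did not, and the cause was not tested. Leaving out 1 library gave 0 to 4, 0 to 17 and 2 to 22 genes called at 3, 6 and 12 h in the wt MET line (2 to 22 at any time), 0 to 18, 0 to 56 and 0 to 61 in the MET∆14 line (0 to 75 at any time), and 1 to 74 in the interaction test. The upper ends came from leaving out a 12 h MET∆14 replicate. Total counts moved the median of all tested genes by -0.11 (wt MET, 6 h), -0.14 (MET∆14, 6 h) and 0.13 (between lines), and by less than 0.1 elsewhere. The median at 12 h in the MET∆14 line ran from -0.42 to 0.29, and the later share there from -0.0139 to 0.223 percentage points.

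In the wt MET line at 6 h, 1 gene was called with DESeq2 size factors, 10 with each line fitted alone, 5 with no filter, 7 with total counts and 0 with a minimum log2 change of 0.5. At 12 h the counts were 17 with each line alone, 16 with length and GC offsets, 8 higher and 8 lower (14 with the replicate block too), 13 with no filter and 10 with total counts. At 3 h each line alone called 1. At any time it called 12, and no filter 9. In the MET∆14 line at 6 h, 2 genes were called with each line alone, 22 with offsets (21 with the block), 35 with no filter, 1 with total counts and 0 with the minimum change. At 12 h they were 11, of which 10 higher, and 11, 2 with no filter and 0 with the minimum change. At any time they were 5 with DESeq2, 10 with offsets (11 with the block), 45 with no filter and 0 with the minimum change. In the interaction test they were 2 with DESeq2 size factors, 7 and 7 with offsets, and 29 with no filter. Where no share of all tested genes stands beside a count under an alternative, that share is not reported here. Such counts describe the processing and are no result about the family.

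Among single genes, RPS19 had a mean response of -0.17 in the MET∆14 line without replicate 2 of 12 h (0.14 without replicate 1), and with offsets RPL10A was 0.18 (0.18 with the block) and RPL39 0.064 (0.065) higher in that line at 0 h.

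Replicate numbers did not pair the libraries: over 28 pairs, deviations of same-numbered libraries correlated between -0.159 and 0.111. The replicate block called 12 genes at 6 h in the MET∆14 line and 5 in the interaction test, 65 between the lines and 0 in the additive model, and gave a difference in share of -2.29 percentage points. It changed no other count.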
